A study of Mus musculus with 13 samples.

Results

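The cells described here are thymocytes with RNA of Il2ra, the interleukin-2 receptor alpha chain (CD25), together with RNA of early T-lineage genes, from a comparison of single-cell RNA sequencing methods on mouse thymus. They were chosen by their counts of unique molecular identifiers (UMIs, 1 per captured RNA molecule). A cell was taken if it held 500 to 25000 UMIs in all, at least 2 UMIs of Il2ra, at least 1 UMI over the partner genes Erg, Dtx1, Ptcra and Hes1, no UMI of Foxp3, and at most 1 UMI over the B cell genes Bank1, Ebf1 and Pax5. The rule kept 996 of 58756 thymic cells in that UMI range, out of 148709 cells in both deposited Parse matrices. These 996 cells are called members below, and the remaining 57760 thymic cells are called other cells.

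All thymic cells came from female C57BL/6N mice of 2 months, a single untreated genotype, with whole lobes dissociated and no sorting. Cells were fixed and barcoded in plates with the Parse Evercode chemistry, in which split-pool rounds label each cell. The kit named WT (whole transcriptome, not wild type) gave the samples WT 1 to WT 4, and the smaller Mini kit gave Mini 1-A, Mini 1-B, Mini 2-A and Mini 2-B. Each kit received both lobes of 2 mice, so the 8 samples are 8 lobes of 4 mice. Lobes of a mouse are technical replicates and p-values over 8 lobes are therefore too small. In the study's naming of samples a letter stands for the mouse and a number for the lobe, which for the Mini samples would make 1-A and 2-A lobes of 1 mouse. For WT 1 to WT 4 no source used here gives the pairing. The kits also used different mice, so kit and mice cannot be told apart. The 10x libraries of the series were not analysed here.

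T cell progenitors enter the thymus without CD4 and CD8 and pass through double-negative stages. CD25 appears as they commit to the T lineage, when Kit, the stem cell factor receptor, marks the earlier of the CD25-positive cells. Notch receptors, cleaved after binding ligand on thymic epithelium, release a domain that joins the DNA-binding protein RBPJ and a Mastermind coactivator, and Hes1, Dtx1 and Ptcra are well-known targets in thymocytes. Ptcra encodes the pre-T cell receptor alpha chain, which pairs with a rearranged beta chain. Cells that pass this checkpoint divide and become CD4 and CD8 double-positive.

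Promoters of 3 genes of this pathway are shown because Notch target genes were part of the rule, while the coactivator Maml3 and the receptor Notch3 were not and are described below. They are RefSeq sequences of build GRCm38.p6, 250 bases before to 50 bases after the transcript start, written along the minus strand on which the 3 genes lie. Capitals mark TGGGAA, the core of the RBPJ site, searched on both strands, so that TTCCCA marks it on the opposite strand.
Ptcra, chr17:46763663-46763962: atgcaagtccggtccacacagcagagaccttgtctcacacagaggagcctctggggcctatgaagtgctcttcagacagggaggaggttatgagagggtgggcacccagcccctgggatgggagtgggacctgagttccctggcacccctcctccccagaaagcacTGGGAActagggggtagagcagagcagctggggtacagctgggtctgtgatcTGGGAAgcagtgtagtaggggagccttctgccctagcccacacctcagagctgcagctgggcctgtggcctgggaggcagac
Maml3, chr3:52104957-52105256: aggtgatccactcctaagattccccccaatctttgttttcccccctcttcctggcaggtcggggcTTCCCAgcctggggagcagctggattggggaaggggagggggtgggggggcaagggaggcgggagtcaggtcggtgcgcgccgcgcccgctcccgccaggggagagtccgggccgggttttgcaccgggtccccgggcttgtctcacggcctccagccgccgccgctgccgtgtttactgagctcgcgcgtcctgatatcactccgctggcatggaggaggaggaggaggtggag
Notch3, chr17:32166841-32167140: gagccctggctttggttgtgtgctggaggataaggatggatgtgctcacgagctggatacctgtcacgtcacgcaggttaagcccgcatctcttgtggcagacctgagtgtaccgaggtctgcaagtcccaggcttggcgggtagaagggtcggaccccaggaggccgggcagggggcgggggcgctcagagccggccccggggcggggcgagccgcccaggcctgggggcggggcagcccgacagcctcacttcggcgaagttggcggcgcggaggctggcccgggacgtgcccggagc
The Ptcra window held 2 matches, the Maml3 window 1 and the Notch3 window 0. The window of Dtx1, another target gene of the rule, also held 0. Of the 40 genes in the Notch list, 31 had at least 1 promoter in the table that was used. These gave 41 promoters, of which 12 (29.3%) held the letters, beside 25.6% of all 32851 promoters of the same length. A match is a run of letters and was not tested for binding.

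Members made up 1.41% of cells in WT 1, 1.32% in WT 2, 1.41% in WT 3 and 2.04% in WT 4. In the Mini kit the share was 1.69% in Mini 1-A, 1.70% in Mini 1-B, 2.07% in Mini 2-A and 2.00% in Mini 2-B. The mean was 1.70% ± 0.305 (SD, n = 8), and WT 4 was the only WT sample in the range of the Mini samples. The number of members ran from 56 in WT 1 to 290 in WT 4. The first-round wells of these cells differ between the kits, so no cell barcode could be shared.

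**Figure D1:**
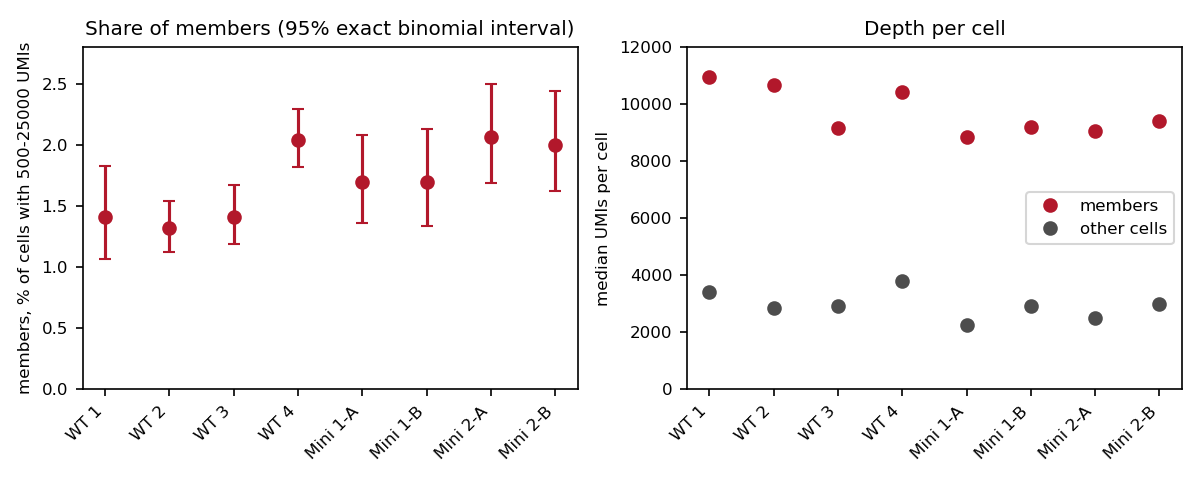
Left, members as a percentage of cells with 500 to 25000 UMIs in each sample, with the 95% exact binomial interval, which covers counting error only. Right, the median number of UMIs per cell in members and in other cells, where members lay between 8829 and 10961.5 and other cells between 2258 and 3805.

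Members were deeper than other cells in every sample. Their median UMI count was 2.74 to 3.91 times that of the other cells, a difference the rule favours because UMIs of named genes are found more often in deep cells. Applied to cells thinned to 2000 UMIs, the rule took 0.609% ± 0.246 of cells (SD, n = 8). Mitochondrial RNA was 6.21% ± 0.857 of UMIs in members and 5.35% ± 0.859 in other cells (SD, n = 8), and no member exceeded 15%. The UMIs of all members in a sample summed to between 656294 in WT 1 and 3293720 in WT 4, so WT 1 gave the least precise levels. No doublet caller was run, so doublets that the authors called in both kits were not removed here, and deep cells may include them. Among cells of up to 10000 UMIs, 3889 genes passed the test between members and other cells given below, 3404 of them also passing in all cells. That limit does not remove doublets of shallow cells, as other cells had medians of only 2258 to 3805 UMIs. The part of doublets among members was not tested. Levels below are UMIs per 1000000 UMIs outside ribosomal RNA (CPM), summed over the cells of a sample, and compare RNA shares between cells, not amounts per cell.

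The genes of the rule describe how the members were selected and were left out of the test between members and other cells. Of the 996 members, 164 had 2 UMIs of Il2ra, 330 had 3 to 5, and 502 had 6 or more. Erg, an ETS-family factor of early thymocytes, was the most frequent partner, with a UMI in 63.7% of members and in 55.1 to 68.4% by sample. Hes1, a repressor, followed with 36.2%, then Dtx1, a ubiquitin ligase, with 26.8%, and Ptcra with 13.4%. Among other cells these shares were 1.54% for Erg, 0.845% for Hes1, 3.43% for Dtx1 and 1.82% for Ptcra. A single partner UMI admitted 426 members (42.8%).

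Cells near the thresholds differed in genes that the rule did not read. Members with 2 UMIs of Il2ra held Notch3 at 228 CPM and those with 6 or more at 314 CPM, and 321 cells with 1 UMI of Il2ra and a partner gene held 133 CPM. Kit was at 31.4 CPM in members with 2 UMIs of Il2ra and at 72.6 CPM in those with 6 or more. The 885 cells with 2 or more Il2ra UMIs but no partner UMI held Notch3 at 192 CPM. In the same 885 cells Ikzf2, a factor of regulatory T cells and other T cells, stood at 713 CPM against 541 CPM in members, and Tnfrsf9, an activation marker, at 27.6 against 10.5 CPM. These are pooled values given without a test.

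The double-negative part of the label was checked on Cd4, Cd8a and Cd8b1, the genes of the coreceptors, in cells thinned to 1000 UMIs each. Thinning left out 2 members and 5416 other cells. A Cd4 UMI was found in 12.6% of members in WT 3, the lowest sample, and in 25.3% in Mini 2-B, the highest, with a mean of 19.5% ± 3.99 (SD, n = 8). In other cells the share was 41.4% ± 6.94 and ran from 32.6 to 49.8%, so the 8 samples of the 2 classes did not overlap. For Cd8a the shares were 16.8% ± 3.70 and 34.9% ± 4.71 (SD, n = 8). For Cd8b1 they were 10.1% ± 3.796 and 25.3% ± 4.70 (SD, n = 8). All 3 genes were lower in members in 8 of 8 samples (exact two-sided paired permutation test over samples, p = 0.0078125 for each, 0.0078125 after Benjamini-Hochberg adjustment over 4 shares). That is the smallest p that 8 pairs allow, and 4 mice would allow no less than 0.125. Without thinning, most members held coreceptor UMIs. A Cd4 UMI was found in 65.9% ± 7.25 of members, a Cd8a UMI in 65.0% ± 10.4 and a Cd8b1 UMI in 58.0% ± 7.12 (SD, n = 8). In other cells matched in UMIs these shares were 89.1%, 88.3% and 79.8%. Against all other cells, at unequal depth, Cd4 was found in members less often by 4.68 points on average (exact permutation p = 0.211). Cd8b1 was found more often by 2.65 points (exact permutation p = 0.266). Against other cells matched in UMIs, the differences at 1000 UMIs were -19.3 points for Cd4, -14.6 for Cd8a and -13.1 for Cd8b1, each lower in 8 of 8 samples.

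Coreceptor UMIs were also found in B cells, a cell type that should lack these genes, and were taken there as a background whose source was not tested. The background was read from 650 B cells, defined by at least 5 UMIs over Bank1, Ebf1 and Pax5, a cutoff set after the data were seen. No T cell gene was barred in choosing these B cells, and doublets were not removed. They held the thymocyte gene Themis at 2803 CPM, against 4493 CPM in other cells (pooled values). The beta constant genes of the T cell receptor stood at means of 511 and 862 CPM. The background is therefore not a floor free of thymocyte RNA. After thinning, which left out 112 of these cells, 17.97% ± 9.07 held a Cd4 UMI, 13.9% ± 6.60 a Cd8a UMI and 6.79% ± 3.75 a Cd8b1 UMI (SD, n = 8). Members exceeded the B cells by 1.57 ± 10.7 percentage points for Cd4, by 2.93 ± 4.85 for Cd8a and by 3.31 ± 5.62 for Cd8b1 (SD of the 8 differences). The differences by sample ran from -11.1 to 17.9 points for Cd4, from -3.03 to 9.03 for Cd8a and from -6.46 to 11.03 for Cd8b1. None passed the exact permutation test (adjusted p = 0.734 for Cd4 and 0.177 for the other two), which does not show that the shares are equal. The median depth was 3693 UMIs in the B cells and 9937.5 in members, and WT 1, with 211 of the 650 cells, held the shallowest B cells, at a median of 1093 UMIs.

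**Figure D2:**
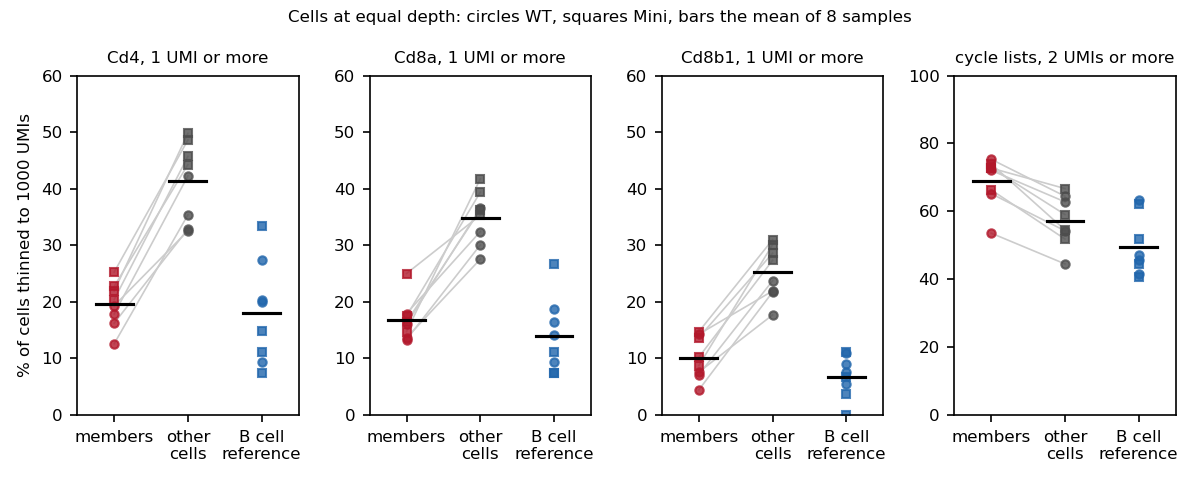
Percentage of cells with a UMI of Cd4, Cd8a or Cd8b1, or with at least 2 UMIs over the cell-cycle lists, among cells thinned to 1000 UMIs. Circles are WT and squares Mini samples, lines join members and other cells of a sample, and bars are means of 8. Members lie below other cells for the coreceptors in all 8 samples, at means close to the B cell reference, and above other cells for the cell-cycle lists.

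Gene levels were then compared between members and other cells of the same sample with edgeR's quasi-likelihood test, the sample being a block and the 9 genes of the rule left out. The test covered 13356 genes and called 4567 of them at an adjusted p under 0.05 (percent called 34.2), 2244 higher in members (16.8) and 2323 lower (17.4). In the comparison with cells matched in UMIs, 9818 genes were tested and 3370 called (34.3), of which 3035 were among the 4567. Calls were thus frequent throughout, and lists of genes are read against these shares. All 8 member samples lay above all 8 samples of other cells for 673 genes (5.04) and below them for 204 (1.53). All adjusted p-values below are from this edgeR test with Benjamini-Hochberg adjustment.

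Among the Notch receptors, Notch3 and Notch1 were clearly higher in members. Notch3 stood at 191 CPM in WT 2, the lowest member sample, at a median of 292 and at 356 in Mini 2-B, against 49.1 to 76.3 CPM in other cells. Its log2 fold change was 2.26 ± 0.07 (SE, adjusted p = 1.3e-25) and the samples did not overlap. Notch1 ran from 290 CPM in WT 2 over a median of 516 to 760 in WT 1, against 103 to 164 CPM in other cells, a log2 fold change of 1.85 ± 0.06 (adjusted p = 3.14e-24). Maml3, a Mastermind coactivator whose promoter is shown above, ran from 505 to 920 CPM against 185 to 250, a log2 fold change of 1.64 ± 0.05 (adjusted p = 5.19e-26). In the B cell reference these 3 genes were at means of 43.3, 122 and 166 CPM.

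The rest of the Notch list moved in both directions. Of its 31 tested genes, 8 were higher and 6 lower in members, with a median log2 fold change of 0.00 beside -0.02 over all genes tested. Dtx4, a ubiquitin ligase of the Deltex family, rose by a log2 fold change of 1.68, from only 25 UMIs in all members. Maml2, another Mastermind gene, fell by 0.38 on the log2 scale, and Dtx2 fell by 0.51. Adam17, a protease that cuts Notch receptors, fell by 0.32. The Dtx2 and Adam17 calls were lost in the Mini kit alone and in thinned cells. Itch, a ubiquitin ligase, fell by 0.22 and did not pass in the matched comparison or in thinned cells.

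**Figure D3:**
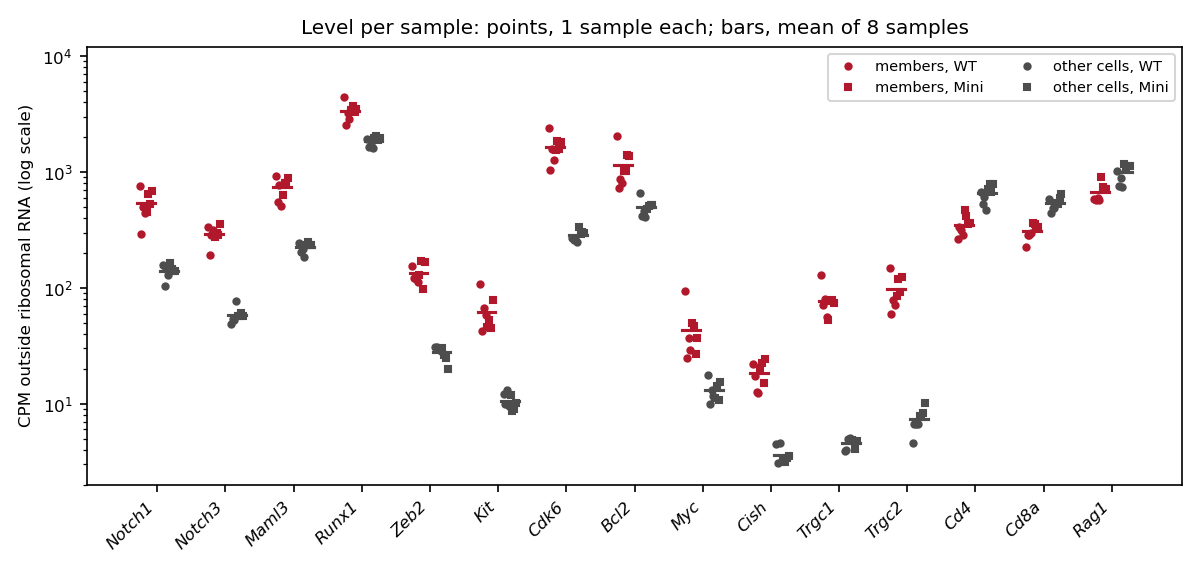
Level of 15 genes in members (red) and other cells (grey), in UMIs per 1000000 outside ribosomal RNA (CPM) on a log axis. Each point is a sample (circles WT, squares Mini) and bars are means of 8. Notch1, Notch3, Maml3, Zeb2, Kit, Cdk6, Trgc1 and Trgc2 lie apart, while Rag1 ranges overlap.

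Genes of the earliest progenitors were higher in members, 6 of 9 tested, with Flt3 lower. Kit ran from 42.2 CPM in WT 2 over a median of 55.7 to 109 in WT 1, against 8.72 to 13.2 CPM in other cells, and rose by a log2 fold change of 2.48 ± 0.12 (adjusted p = 1.42e-19). Bcl11a, a factor of progenitors and B cells, rose by 1.73, between 30.3 and 73.8 CPM in members and 9.00 and 19.4 CPM in other cells. Mpo, myeloperoxidase, Lyl1, a basic helix-loop-helix factor, and Spi1, the factor PU.1, rose by 2.36, 1.87 and 1.09 on the log2 scale, on 29, 37 and 55 UMIs in all members. Flt3, a cytokine receptor of multipotent progenitors, had 28 UMIs in members and was lower by a log2 fold change of -1.15. The Spi1 call was lost without WT 4 and in the Mini kit alone. The Flt3 call was lost in cells with up to 10000 UMIs, in the WT kit alone and when no partner gene was required.

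Factors of T-lineage commitment split, with 6 of 23 tested higher and 11 lower. Zeb2, a repressor of early lymphoid and myeloid cells, ran from 98.4 to 171 CPM in members and from 19.9 to 31.1 in other cells, a log2 fold change of 2.19 ± 0.09 (adjusted p = 4.02e-21). Runx1 rose by 0.81 ± 0.04 on the log2 scale, at 3367 ± 556 CPM in members and 1849 ± 164 in other cells (SD, n = 8), with no overlap between samples. Sox13, a factor also linked to gamma-delta T cells, rose by 1.29. Tcf7 and Lef1, the nuclear partners of beta-catenin, fell by 0.49 and 0.48 on the log2 scale, Ikzf3 fell by 0.86, Ets2 fell by 0.60 and Id3 fell by 1.10. Bcl11b, which fixes T cell identity, was near equal, at 2123 against 2195 CPM on average, with a log2 fold change of -0.09 that was negative in 6 of 8 samples and did not pass in the Mini kit alone.

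Recombination genes were more often lower than higher, 7 against 2 of 12. Rag1, a subunit of the recombinase, ran from 570 CPM in WT 4 over a median of 654 to 914 in Mini 1-A in members, and from 745 to 1174 CPM in other cells. The ranges overlapped, yet Rag1 was lower in members in 8 of 8 samples and fell by 0.59 ± 0.04 on the log2 scale (adjusted p = 2.97e-14). The B cell reference held Rag1 at 545 ± 170 CPM (SD, n = 8). Its partner Rag2 fell by 0.62, between 26.1 and 64.6 CPM in members and 46.3 and 78.5 CPM in other cells. Both Rag genes overlap a further annotated gene, so reads there could be split. Prkdc and Xrcc5, which join DNA ends, rose by 0.25 and 0.38 on the log2 scale. The Xrcc5 call was lost in cells up to 10000 UMIs and in thinned cells, and the Prkdc call with no filter on low counts.

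T cell receptor genes separated members from other cells most clearly at the gamma locus. The constant genes Trgc1, Trgc2, Trgc3 and Trgc4, looked at after the data were seen, gave a UMI in 67.9% of members and 3.59% of other cells, and their variable genes in 28.7% and 1.66%. In the B cell reference the constant genes gave a UMI in 3.23% of cells. These shares are of cells that were not thinned, and members were deeper than both other classes, which widens the contrast. Trgc1 (GRCm38 chr13:19214103-19217024) ran from 53.1 CPM in Mini 1-A over a median of 75.6 to 129 in WT 1, against 3.91 to 5.06 CPM in other cells, a log2 fold change of 3.98 ± 0.13 (adjusted p = 4.85e-24). Trgc2 (chr13:19304649-19307551) ran from 59.6 to 149 CPM against 4.62 to 10.0 CPM, a log2 fold change of 3.62 ± 0.13 (adjusted p = 1.14e-23). Trgc1, Trgc2 and Trgc3 are close copies, so how their reads divide among them is uncertain.

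The other receptor chains were closer to the remaining cells. Trdc, the delta constant gene, rose by 0.56 on the log2 scale, at 67.7 to 108 CPM against 47.6 to 58.7. Trac, the alpha constant gene, fell by 0.85, at 74.7 ± 20.4 CPM in members, 135 ± 18.2 in other cells and 82.0 ± 27.2 in the B cell reference (SD, n = 8). Trbc2, a beta constant gene, fell by 0.39, while Trbc1 stood at 496 ± 74.3 CPM in members and 501 ± 62.3 in other cells and did not pass. Of the 12 tested genes of gamma-delta and innate-like T cells, 1 was higher and 6 lower. The higher gene was the kinase Blk, at a log2 fold change of 0.77, a call lost in the WT kit alone and in thinned cells.

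Signalling genes of the pre-T cell receptor and its successor were mostly lower, 19 of 26, with 2 higher. Zap70, the kinase that binds the activated receptor, ran from 85.7 to 132 CPM in members and from 168 to 213 CPM in other cells and fell by 0.77 ± 0.06 on the log2 scale (adjusted p = 2.12e-12). Syk, the related kinase, rose by 0.25, a call lost without WT 4, in the WT kit alone, and in several other settings. Cd5, a brake on receptor signals, fell by 0.80, Cd2 fell by 0.92, Cd28 fell by 0.73 and Themis, needed for selection, fell by 0.50. Cd3g rose by 0.28, a call lost in thinned cells. Cd3e stood at 298 ± 61.8 CPM in members and 292 ± 43.4 in other cells (SD, n = 8).

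Genes of double-positive cells were lower in members for 9 of 11 tested, with a median log2 fold change of -0.68. Cd4, counted over all UMIs, ran from 264 to 466 CPM in members and from 467 to 781 in other cells. It fell by 0.91 ± 0.05 on the log2 scale (adjusted p = 5.5e-17). Cd8a fell by 0.83 and Cd8b1 fell by 0.81. The mean Cd4 level of 352 ± 67.2 CPM lay close to the 381 ± 106 CPM of the B cell reference, and that of Cd8a, 310 ± 45.9, to 315 ± 76.7 (SD, n = 8). With at least 3 or 10 B cell UMIs in place of 5, the reference was at 434 or 329 CPM for Cd4 and at 361 or 291 CPM for Cd8a. The chemokine receptor Ccr9 fell by 0.71 and the chromatin organiser Satb1 fell by 0.68. Arpp21 was the exception at a log2 fold change of 0.08, a call that was lost or turned in several settings.

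Genes of maturing single-positive cells were higher in 6 and lower in 13 of 23 tested. Runx3, a factor of the CD8 lineage, rose by 0.94 on the log2 scale. The class I antigen-presentation genes B2m and H2-K1 rose by 0.54 and 0.47. Zbtb7b, the CD4-lineage factor, fell by 1.17, Ccr7 fell by 0.71, a call lost with no partner gene required, and Gimap3 fell by 1.19.

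Cytokine signalling genes were higher in 7 and lower in 12 of 25 tested. Cish, a feedback inhibitor induced by STAT5, ran from 12.5 to 24.5 CPM in members and from 3.07 to 4.58 CPM in other cells, a log2 fold change of 2.27 ± 0.19 (adjusted p = 1.55e-12). Socs2, a related inhibitor, rose by 2.22 on 38 UMIs in members. Il7r, the interleukin-7 receptor alpha chain, rose by 0.28, a call lost in the WT kit alone. Stat3 and Ifngr1 rose by 0.35 and 0.58, and Il2rb, the beta chain that works with Il2ra, fell by 0.98. The Il7r, Stat3 and Il2rb calls were lost in thinned cells. That of Il7r was also lost with no filter on low counts, and that of Il2rb with no partner gene required.

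Of 14 survival genes tested, 1 was higher and 3 lower (percent called 28.6, beside 34.2 over all genes tested), and the higher gene was Bcl2. Bcl2, which blocks cell death, ran from 734 CPM in WT 2 over a median of 1020 to 2033 in WT 1 in members and from 413 to 660 in other cells, a log2 fold change of 1.11 ± 0.05 (adjusted p = 6.18e-19). Bcl2l1, the relative that protects double-positive cells, fell by 0.71 and the death gene Bbc3 fell by 0.95.

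Growth and nutrient genes were higher for 12 of 20 tested and lower for 0, with a median log2 fold change of 0.42. Myc, a driver of growth, ran from 24.9 CPM in WT 2 to 94.1 in WT 1, against 9.88 to 17.8 in other cells, a log2 fold change of 1.57 ± 0.13 (adjusted p = 6.67e-13). Slc7a5, an amino acid transporter, rose by 1.89, Hk2, a hexokinase, rose by 1.08, the nucleolar gene Nop58 rose by 0.71 and the transferrin receptor Tfrc rose by 0.41. The Hk2 call was lost in thinned cells.

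Cell-cycle genes depended on the cells used for comparison. Of 30 replication genes, 9 were higher and 1 lower in members, among them Mcm6, a helicase subunit, at a log2 fold change of 0.53. Of 30 mitosis genes, 0 were higher and 18 lower, with Mki67 at -0.30, Top2a at -0.29 and Hmmr at -0.46. The calls of Mki67, Top2a and Hmmr were lost in thinned cells. Against other cells matched in UMIs, 2 replication genes were higher and 8 lower, and all 30 mitosis genes were lower. Cdk6, a kinase of the G1 phase, ran from 1045 CPM in WT 2 to 2398 in WT 1, against 251 to 334 CPM, a log2 fold change of 2.44 ± 0.06 (adjusted p = 2.24e-27). Its partner Ccnd2 rose by 1.02 and Ccnd3 fell by 0.51. In the list of cyclins and inhibitors 4 of 15 were higher and 8 lower.

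In cells thinned to 1000 UMIs, 69.0% ± 7.20 of members and 57.3% ± 7.40 of other cells held at least 2 UMIs of the 60 replication and mitosis genes (SD, n = 8). The share was higher in members in 8 of 8 samples, by 11.7 points (exact permutation p = 0.0078125, adjusted p = 0.0078125). The difference was not there at matched depth. Against other cells matched in UMIs before thinning it was -3.39 ± 4.47 points and lower in 7 of 8 samples (exact permutation p = 0.0625). Among cells over 6000 UMIs, the share high for the lists, by the limit of the next paragraph, was 52.3% in members and 58.2% in other cells, a difference of -5.94 ± 6.14 points (SD, n = 8, unadjusted exact permutation p = 0.03125). B cells held such UMIs in 49.6% ± 8.81 of cells after thinning.

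Members differed among themselves in the cell-cycle lists. With a score of 25 list UMIs per 5000 as the limit, chosen after the data were seen, 422 members were high and 574 low, and 8.63% of members lay between 20 and 30. The high share was 21.4% in WT 1 and 35.8 to 51.7% in the other 7 samples. High members were deeper, at a median of 14089 against 7422.5 UMIs. Notch3 was at 170 ± 31.9 CPM in high and 423 ± 79.1 CPM in low members (SD, n = 8), and was lower in high members in 8 of 8 samples. Notch1 was at 437 and 654 CPM and Bcl2 at 926 and 1367 CPM, each lower in the high members of all 8 samples. So were the rule genes Il2ra, at 656 and 1220 CPM, Erg, at 123 and 190, and Dtx1, at 25.6 and 59.5. Deep cells can pass the rule at lower levels of its genes. Whether this bears on Notch1, Notch3 and Bcl2 was not tested. Cd4 was at 339 and 356 CPM. These values are a description without a test, because the high class was cut from a score and is a range rather than a cell type.

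The split by cell cycle that could be tested was narrow. A member counted as cycling with at least 5 list UMIs per 5000, which held for 945 of the 996 members. This limit lay below the median score of other cells, 11.6. Cycling here therefore means all but the lowest scores, not dividing cells. At least 10 non-cycling members were left only in WT 3 and WT 4, with 12 and 13 cells. These samples may be lobes of 1 mouse, in which case their spread is technical. Of 6952 genes tested, 26 passed (percent called 0.374), 12 higher (0.173) and 14 lower (0.201) in cycling members. The lower genes include Il2ra, which the rule used and from which nothing is read. The higher genes included Diaph3, an actin-nucleating formin, at 270 ± 14.4 against 30.1 ± 9.66 CPM, and Hmgb2, a chromatin protein, at 335 ± 25.5 against 90.3 ± 29.0 CPM (SD, n = 2). Wwox was lower at 1155 ± 136 against 2757 ± 512 CPM, and Notch3 at 287 ± 31.0 against 611 ± 75.3 CPM (SD, n = 2). DESeq2 called 1 gene in the same comparison and another scaling called 8, so the count rests on the method.

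Among the 15 genes that rose most by the naming rule were several that are not on any list. H19, an imprinted noncoding RNA, ran from 21.1 CPM in WT 2 over a median of 61.5 to 137 in Mini 2-B, against 0.652 to 3.34 CPM in other cells, a log2 fold change of 5.09 ± 0.25 (adjusted p = 6.18e-19). Rab38, a small GTPase, rose by 4.62 and Epb41l4b, a membrane-cytoskeleton protein, by 4.34. Cpa3, the carboxypeptidase of mast cells and some progenitors, was at 7.58 to 32.4 CPM against 0.533 to 1.61 and rose by 4.29. Muc13, a mucin, rose by 4.24, Scin, an actin-severing protein, by 4.09 and Arhgef10l by 3.84. Others were Trgc1 and Trgc2, given above, Epb41l4a at 3.74, Tshz2 at 3.67, Nckap5 at 3.64, Itgb4, an integrin subunit, at 3.61 and Myl10, a myosin light chain, at 3.61. The ranges of the genes named here lay apart in the 8 samples.

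The 15 genes that fell most by the naming rule did so by smaller amounts. H2-Eb1 and Cd74, genes of class II antigen presentation in B cells, dendritic cells and epithelium, were at 2.99 ± 1.87 against 21.7 ± 4.34 CPM and at 7.98 ± 4.66 against 42.3 ± 11.8 CPM (SD, n = 8). They fell by 2.73 and by 2.18 on the log2 scale. The rule barred cells with B cell genes, so low values of genes shared with B cells are partly set by it. Beyond Gimap3, Cd2 and Cd4, the rest fell by 0.87 to 1.02. They were Slit3, Adam19, Pacsin1, Raph1, St3gal6, Dock4, Rragd, Cacna1e, Myo1e and Btla, the last an inhibitory receptor of lymphocytes. The calls of Raph1, St3gal6, Dock4 and Myo1e were lost in thinned cells.

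**Figure D4:**
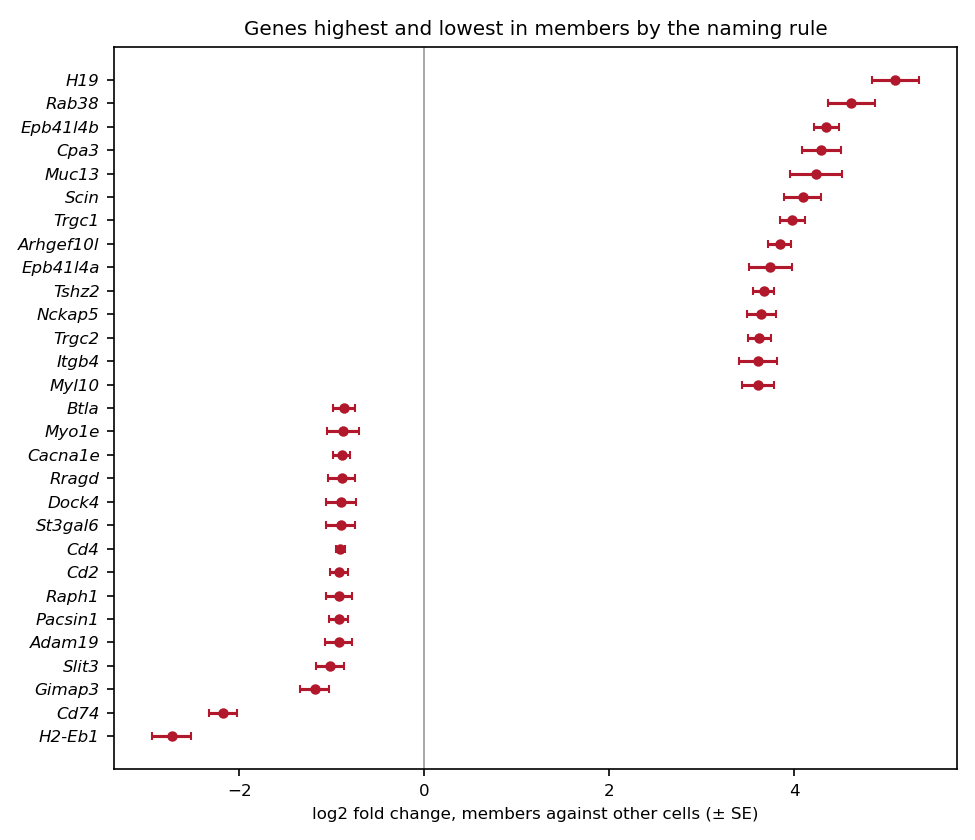
Log2 fold change of members against other cells, with its SE, for genes with the largest rise and the largest fall by the naming rule. Rises extend to 5.09 for H19 and falls to -2.73 for H2-Eb1, with most falls near -0.9.

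Adhesion and homing genes were higher in 4 and lower in 13 of 21 tested. Itga4, an integrin alpha chain, rose by 0.93 on the log2 scale, at 516 to 843 CPM against 273 to 414. Cd24a, high on immature thymocytes, rose by 0.59, while Plxnd1, a semaphorin receptor, fell by 0.82 and Itgb2 fell by 0.75. The Cd24a call was lost in thinned cells.

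Markers of other cells were checked because Il2ra is also found on regulatory and activated T cells and on innate lymphoid cells. In the list of regulatory and activated T cells 3 of 10 were higher and 2 lower. The rule barred cells with a Foxp3 UMI, so this check is partly set by it. Ctla4, an inhibitory receptor, rose by 1.26 (181 ± 45.1 against 71.1 ± 7.99 CPM, SD, n = 8), Tnfrsf1b by 1.08 and Nr4a3 by 0.78. The summed level of this list was 876 to 1322.49 CPM in members and 769 to 982 in other cells, higher in members in 8 of 8 samples. Ikzf2, a large part of that sum, stood at 541 CPM in members and 535 CPM in other cells (pooled values). For innate lymphoid cells of group 2 the summed level was 107 to 255 CPM against 74.2 to 111 CPM, higher in members in 8 of 8 samples. In that list Il17rb rose by 1.51, 2 of 3 tested genes were lower, Il5 and Il13 were at 0 UMIs and Il1rl1 at up to 3. In the list of natural killer and group 1 cells 2 of 3 tested were higher and 1 lower, with summed levels of 17.7 to 33.2 against 14.3 to 21.05 CPM, higher in members in 8 of 8 samples, and Ncr1 and Eomes at up to 3 UMIs.

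Epithelial and stromal markers gave 2 higher of 3 tested, Epcam at a log2 fold change of 1.86 and Pdgfrb, a growth factor receptor, at 3.11. Their sum was 467 to 649 CPM in members and 414 to 472 in other cells, higher in 8 of 8 samples, while Foxn1, Psmb11, Krt5, Krt8, Col1a1 and Col3a1 had at most 3 UMIs in all 996 members and Pdgfra 0. The B cell list had 7 of 10 lower and 0 higher, and its sum was higher in members in 1 of 8 samples (55.1 to 191 against 94.4 to 247 CPM). The rule barred cells with B cell genes, so these low values are partly set by it. Against other cells matched in UMIs, 2 genes of that list were lower. The list of myeloid and antigen-presenting cells had 9 of 14 lower and 1 higher, with a sum of 226 to 343 against 285 to 400 CPM. Of 2 erythroid genes tested 0 passed, and their sum was 0 to 11.3 CPM against 1.20 to 11.5 CPM. The part of such cells in the results was not tested further.

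By background knowledge Kit marks the earlier of these cells, and 261 of the 996 members held a Kit UMI. The split is by detection. With Kit at 59.2 CPM over all members, a cell that expresses it can lack a UMI, so a missing UMI does not mark a later cell. The share was 44.6% in WT 1 and 23.2 to 27.4% in the other 7 samples. Members with a Kit UMI were deeper, at a median of 11555 against 9256 UMIs. Kit itself was left out of the test, which covered 6085 genes in 8 samples and called 375 (percent called 6.16), 226 higher (3.71) and 149 lower (2.45) in members with Kit. The higher genes include Erg, which the rule used and from which nothing is read.

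The 3 tested genes of early progenitors other than Kit were Bcl11a, Mef2c and Cd44, and all 3 were higher with Kit. Bcl11a ran from 79.1 CPM in Mini 2-A to 130 in Mini 1-B with Kit and from 13.1 to 60.1 without, with no overlap (log2 fold change 1.83 ± 0.18, adjusted p = 2.36e-09). Mef2c, a factor of progenitors and B cells, rose by 1.60. Cd44, the adhesion receptor that with Kit marks the earlier CD25-positive stage, was at 43.5 to 108 CPM with Kit and 21.5 to 42.5 without, a log2 fold change of 1.27 ± 0.17 (adjusted p = 1.22e-06). Runx3 rose by 1.33. Among the largest rises were Adgrg3, an adhesion G protein-coupled receptor, at 2.48, Arhgap6 at 2.40, Lrmda at 2.12, Angpt1, angiopoietin 1, at 1.81, and Deptor, an inhibitor of mTOR, at 1.77. Slc22a3 and Rhoq followed at 1.60 and 1.52.

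Fewer genes were lower with Kit, and the falls were smaller. Notch3 was at 187 ± 60.01 CPM with Kit and 339 ± 62.2 without (SD, n = 8), lower in 8 of 8 samples, and fell by 0.85 ± 0.10 on the log2 scale (adjusted p = 4.94e-08). Notch1 was at 522 ± 155 and 546 ± 156 CPM and did not pass. Rag1 fell by 0.41, between 412 and 789 CPM with Kit and 606 and 963 without. Rag2 fell by 0.63, a call lost in most samples left out in turn. Of 23 tested genes of pre-T cell receptor signalling 10 were lower and 1 higher, among them Cd3e and Lat, an adaptor, which fell by 0.32 and by 0.42. Ctla4 fell by 0.53. The largest falls were Tnr, an extracellular matrix gene, at -1.26, Pgpep1l at -0.90, Adamts17 at -0.88, Pld4 at -0.78, the deacetylase Hdac4 at -0.76, Kcnh2 at -0.74, Bst1 at -0.73, Wwox at -0.68 and Rab11fip4 at -0.61. The calls of Cd3e, Kcnh2 and Bst1 were lost without WT 4 and with DESeq2.

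Replication genes were higher with Kit in 11 of 27 tested, with Mcm3 at 0.75 and Pola1 at 0.51 on the log2 scale, and mitosis genes in 0 of 24. The Pola1 call was lost with DESeq2. Of 17 growth genes 5 were higher. Trgc1 and Trgc2 were at 95.4 and 93.1 CPM with Kit and at 71.3 and 99.4 CPM without, and neither passed with all samples. Trgc1 passed without WT 1 (log2 fold change 0.59) and without Mini 1-B (0.60). Among members with 4000 to 25000 UMIs the split called 317 genes, 311 of them among the 375. DESeq2 called 169, and leaving out WT 4 left 230.

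**Figure D5:**
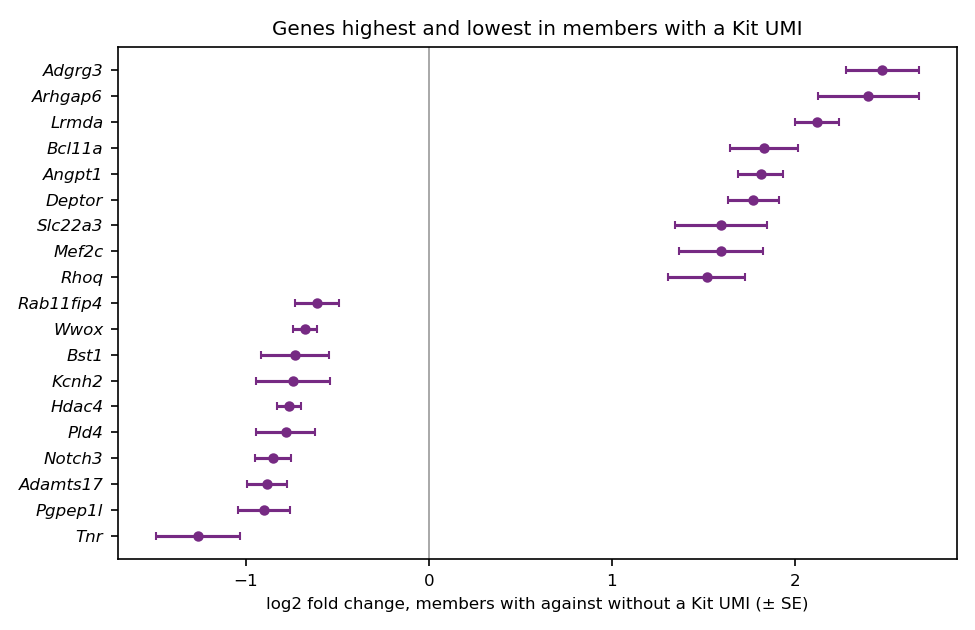
Log2 fold change of members with a Kit UMI against members without one, with its SE, for genes with the largest rise and the largest fall by the naming rule. Rises reach 2.48 for Adgrg3, and the largest fall is -1.26 for Tnr.

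The difference between members and other cells was last compared between the kits. edgeR called 0 of 13356 genes in this interaction (percent called 0), with 592 at an unadjusted p under 0.05, and DESeq2 also called 0. The smallest adjusted p was that of Pde4b, a phosphodiesterase, at 0.0992, with log2 fold changes of 1.04 in WT and 0.54 in Mini. Smad7, an inhibitor of transforming growth factor beta signals, followed with an adjusted p of 0.162 and log2 fold changes of 0.93 and 1.74. In simulated data the same test recovered 41% of genes changed by 1 on the log2 scale and 84% of those changed by 2, so smaller differences could be missed. The simulation gave all genes the same preset dispersion and changed only genes above a minimum mean count, so recovery of low genes is not covered. Without WT 1 the test called 11 genes and with no filter on low counts 10 genes, Pde4b and Smad7 among them in both.

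WT 1 stood apart among the member samples. It held the fewest members and the highest levels of Notch1, Maml3, Runx1, Kit, Cdk6, Bcl2, Myc, Trgc1 and Trgc2, the largest share with a Kit UMI and the smallest share high for cell-cycle genes. Without WT 1, 4431 genes passed between members and other cells, 4219 of them among the 4567, and of 112 genes named from this comparison only Arpp21 no longer passed.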

How the data were processed

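Single-cell RNA sequencing of thymus was done by the authors with Parse kits, and the deposited values are raw UMI counts per gene and cell. They were made with split-pipe against mm10; replicates were not pooled. The row of each cell summed to its stated transcript count in all 128624 WT and 20085 Mini cells. The 16 other tissue samples of the WT library and the 10x files were not used. The authors called doublets in both Parse libraries with scDblFinder and removed them for their analysis. The deposited matrices were used as they stand, with no doublet caller. Their 41838 thymic WT cells are about the number that the authors recovered before removing doublets, so called doublets appear to remain. For the Mini kit this was not checked.

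Here, samples were taken from the first-round wells given for each tissue sample. The members and the gene lists were chosen with earlier results of these data known. UMIs of members and of other cells were summed per sample (8 samples, 4 mice) and tested with edgeR 4.0.16 (quasi-likelihood, TMM, filterByExpr, sample as block, Benjamini-Hochberg, adjusted p under 0.05) in R 4.3.3, without 9 rule genes and the ribosomal RNA genes Rn18s-rs5, mt-Rnr1 and mt-Rnr2. Shares used exact paired sign-flip permutation over samples, with scipy 1.17.1 and numpy 2.4.6, on cells thinned to 1000 UMIs. Matching took 3 other cells per member. Alternatives included DESeq2 1.42.0. Intervals cover counting error only.

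Named genes were those of the lists and the 15 (members) or 10 (Kit and cell-cycle splits) with the largest rise and fall, passing the test with 1 sign in all samples and at least 20 CPM on the higher side, and 5 for the kit interaction, predicted genes aside. On simulated data the main test recovered 26.9%, 88.1% and 95.5% of genes changed by 0.5, 1 and 2 on the log2 scale (13055 genes run). The Kit split recovered 96.9% and 100% at 1 and 2 (5967 genes run). Unchanged genes made up 2.10% of the calls in the main test and 6.37% in the Kit split, above the 5% aimed at. Of 57010 gene IDs, 91.3% were in the GRCm38 annotation used for coordinates. Whether counting used strand is not stated in the sources read, so antisense neighbours cannot be told apart. Results for a few genes are not reported here.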

Additional observations from a re-analysis of the deposited data

Results flagged for a closer look

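Of 52 groups of 4 samples examined, 6 held a sample far from the other samples of its kit (its gap to the nearest sample, divided by the range, was above Dixon's 95% critical value), where chance gives about 1 in 20. WT 4 had 2.04% members, against 1.32 to 1.41% in the other WT samples. In WT 1, 44.6% of members held a Kit UMI, against 24.4 to 26.0%. Bcl2 stood at 2033 CPM in the members of WT 1, against 734 to 878 CPM. In Mini 1-A, Rag1 stood at 914 CPM, against 707 to 739 CPM in the other Mini samples, and Trgc1 at 53.1 CPM, against 74.6 to 77.8 CPM. In Mini 2-B, 66.3% of members held cell-cycle UMIs at equal depth, against 72.7 to 74.0%.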

How the results depend on the processing

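Members and other cells were paired by sample in every comparison between them. Between the kits, no paired analysis was possible because the numbers of WT and Mini samples name different mice. The share of cells that were members, 1.70%, became 2.18% with 1 Il2ra UMI sufficing, 3.21% with no partner gene, 1.01% in cells up to 10000 UMIs and 0.609% in cells thinned to 2000 UMIs, and ran from 1.65 to 1.76% with 1 sample left out. Without thinning, the differences between members and other cells became -4.68 points for Cd4 (exact permutation p = 0.211), -0.35 for Cd8a (p = 0.938) and 2.65 for Cd8b1 (p = 0.266), at unequal depth. With 1 sample left out they ran from -23.1 to -21.0, from -19.2 to -16.8 and from -16.2 to -14.3 points. The cell-cycle difference of 11.7 points ran from 10.6 to 12.5 points with 1 sample left out and was -3.39 points against cells matched in UMIs, an alternative chosen after seeing the data. The 4567 genes called between members and other cells became 1769 in thinned cells, 3019 in the WT kit and 2901 in the Mini kit, each with fewer UMIs or samples, and 4023 to 4431 with 1 sample left out. DESeq2 called 4091. With no filter on low counts it was 5409, of which 32.3% were higher against 49.1%, the median of all genes shifted by -0.12 on the log2 scale, and Arpp21 turned to -0.032. The other settings gave 3370 to 5165 calls. Of the 112 named genes, 77 of the 97 still tested passed in thinned cells. The 375 genes of the Kit split became 169 with DESeq2, and 230 to 390 with 1 sample left out, the lowest without WT 4. The 26 genes of the cell-cycle split became 8 with RLE size factors and 1 with DESeq2; the cause was not tested, and no sample could be left out, since the 1 remaining would leave no residual degrees of freedom. The kit interaction called 10 genes with no filter and 0 to 11 with 1 sample left out, the highest without WT 1. Sums over mice rest on an assumed pairing of lobes and are not reported. Depth limits low genes such as Dtx4, Mpo and Flt3, with under 30 UMIs in all members.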
